A study of Mus musculus with 4 samples.

Results

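The genes described are Ifng, Il2, Il21, Il4, Il13, Il5, Il17a and Il17f, 8 cytokine genes that define the helper T cell subsets, and the open chromatin regions around them in LN Treg cells. Every ATAC-seq peak that overlapped a gene body or the 20 kb on either side of it was taken, in each of 4 libraries, and peaks that overlapped by at least 1 bp were joined into regions. This gave 23 of the 272233 regions of the series. Il4, Il13 and Il5 were also read as 1 cluster on chromosome 11, which added 2 regions inside the neighbouring gene Rad50. The rule that chose them uses no measured value.

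Treg cells were sorted from LNs of naïve, unstimulated female C57BL/6 mice aged 6 to 8 weeks, all of them carrying the Foxp3 Rfp/Rfp reporter that marks Treg cells in red. WT mice (2 libraries) had an intact Il2ra, and Il2ramut/mut mice (2 libraries) carried on both alleles a point mutation in CD25, the IL-2 receptor alpha chain, which lowers CD25 on the cell surface and weakens the response to IL-2. The mutation arose in a Ccr2-/- colony and was bred away from it. Each library came from 50000 cells. Peak lists cannot show the point mutation, so the genotypes rest on the labels alone. The methods call the libraries of a genotype biological replicates, nothing gives the number of mice behind each, and the spread between the libraries is the error used here.

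The lists held between 112569 and 142732 peaks per library. Start sites of all 10 Treg markers (Foxp3 and Ctla4 among them) and all 7 T cell markers matched were open in all 4 libraries, where open means a peak within 1 kb. None of the 6 myeloid and 4 NK cell markers was open in any library. Of 5 B cell markers, Ebf1 was open in all 4 libraries and Cd79b in some, while Cd79a, Ms4a1 and Pax5 had no peak. Of the CD8 T cell markers Cd8b1 was open in all 4 libraries and Cd8a in none. In such bulk samples, fewer cells of a type and less open chromatin per cell cannot be told apart.

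IFN-γ is the signature cytokine of Th1 cells, IL-4, IL-5 and IL-13 of Th2 cells, IL-17A and IL-17F of Th17 cells and IL-21 of follicular helper T cells. IL-2 is made by activated conventional T cells, and Treg cells, in which Foxp3 represses Il2, depend on IL-2 from others through CD25. Cytokine genes are opened at promoters and at distant enhancers as helper T cells differentiate, and the Th2 cytokines share a locus control region that lies within introns of Rad50. ATAC-seq reads open chromatin, not transcription, and says nothing of how much cytokine was made.

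The sequences below are those of 11 regions that the results turn on, 101 bases centred on the summit of the strongest peak, on the plus strand of mm10 (GRCm38) as RefSeq gives it. Il2, Il21, Il4, Il13 and Il17f are read from the minus strand. Regions are named by the gene and the distance of this summit from its start site, plus being downstream. Capitals mark 7 short motifs searched on both strands. STAT factors, which carry cytokine signals, bind TTCNNNGAA. For AP-1, which acts on T cell activation, TGANTCA was searched, with any base at N. Its partner NFAT binds GGAAA. The letters searched for the GATA family, with the Th2 factor Gata3, were GATAA. For the RUNX family TGTGGT was searched, and for the T-box family, with the Th1 factor Tbx21, GGTGTGA. For the ETS family AGGAAG was searched. The NFAT and ETS letters overlap each other. The first line is the region at the only start site open in all 4 libraries.
Il2 −0.4 kb, chr3:37126305-37126405: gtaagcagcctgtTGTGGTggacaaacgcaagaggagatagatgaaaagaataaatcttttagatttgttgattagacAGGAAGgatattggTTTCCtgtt
The next pair had the most reads among regions of these loci that lie outside any gene.
Il21 +27.2 kb, chr3:37205342-37205442: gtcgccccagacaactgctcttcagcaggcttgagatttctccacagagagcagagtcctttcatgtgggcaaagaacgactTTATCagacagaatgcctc
Il21 +28.4 kb, chr3:37204133-37204233: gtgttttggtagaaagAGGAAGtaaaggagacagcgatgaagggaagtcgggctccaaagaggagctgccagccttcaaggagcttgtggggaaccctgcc
The following pair lies in Rad50 and held more reads in both Il2ramut/mut libraries than in both WT libraries.
Il13 −22.3 kb, chr11:53656903-53657003: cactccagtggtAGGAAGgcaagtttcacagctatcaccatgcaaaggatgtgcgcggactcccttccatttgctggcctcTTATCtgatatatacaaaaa
Il13 −28.3 kb, chr11:53662972-53663072: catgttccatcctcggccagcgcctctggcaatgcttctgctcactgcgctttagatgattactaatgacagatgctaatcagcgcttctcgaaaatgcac
The next lies between Il4 and Il13, and the one after it downstream of Ifng.
Il13 +6.6 kb, chr11:53628036-53628136: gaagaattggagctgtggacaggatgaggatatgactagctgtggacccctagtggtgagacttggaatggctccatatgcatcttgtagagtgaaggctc
Ifng +17.9 kb, chr10:118458864-118458964: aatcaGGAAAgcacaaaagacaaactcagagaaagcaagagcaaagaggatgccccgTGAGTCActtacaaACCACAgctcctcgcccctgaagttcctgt
The region in Kif3a differed most between genotypes in the other direction.
Il4 +28.1 kb, chr11:53590520-53590620: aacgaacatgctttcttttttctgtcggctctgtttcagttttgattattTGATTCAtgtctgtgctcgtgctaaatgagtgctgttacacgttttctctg
The last lines are the regions called in both Il2ramut/mut libraries and in neither WT library, and the region called in all 4 libraries at Il17a.
Il17a +9.8 kb, chr1:20740693-20740793: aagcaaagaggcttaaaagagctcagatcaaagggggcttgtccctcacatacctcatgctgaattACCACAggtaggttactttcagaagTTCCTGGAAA
Il21 +13.3 kb, chr3:37219234-37219334: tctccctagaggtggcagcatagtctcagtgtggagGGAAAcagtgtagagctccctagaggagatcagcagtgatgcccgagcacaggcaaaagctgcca
Il17a +13.2 kb, chr1:20744018-20744118: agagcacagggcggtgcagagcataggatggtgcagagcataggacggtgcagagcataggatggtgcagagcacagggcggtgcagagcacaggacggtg

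The STAT letters occurred in 1 of the 25 regions (4%), Il17a +9.8 kb, against 2.97% of all regions. The AP-1 letters occurred in 2 (8%), Ifng +17.9 kb (as TGAGTCA) and Il4 +28.1 kb (as TGATTCA), against 3.74%. The GATA letters were found in 3 (12%), among them Il21 +27.2 kb and Il13 −22.3 kb, against 12.2%. The RUNX letters were found in 5 (20%) against 9%, the NFAT letters in 9 (36%) against 27.7%, the ETS letters in 4 (16%) against 15.8% and the T-box letters in none against 1.62%. Il17a +13.2 kb consists of a tandem repeat, with 5 copies of GGTGCAGAG in its 101 bases and a G and C content of 61.4%. The window at Ifng +20.5 kb, not shown, was 70.3% repeat-masked. Of the 25 regions 3 were masked over more than 50% of these bases (12%), against 11.6% of all regions. A match is a description of letters and not a binding site.

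Start sites of the helper T cell cytokines were mostly without a peak. Only Il2 was open at its start site in all 4 libraries (1 of 8 genes), against 11417 of 21938 protein-coding genes (52%). Ifng had a start-site peak in 3 libraries, Il4 in 1 (Il2ramut/mut replicate 1), and Il21, Il13, Il5, Il17a and Il17f in none. The Il4 peak, of 10 reads, lay 1.27 kb inside the gene from its outermost start site. It counted because it touches the start of another Il4 transcript. Ifng lacked it in WT replicate 1 only, so that without that library 2 genes were open in every library left. That library did have a peak at Ifng (7 reads, summit 1149 bp downstream of the start site), which began just beyond the 1 kb limit. At the other sites the absence of a peak means that the reads did not pass the authors' threshold, since the weakest listed peaks held 5 or 6 reads, and not that the site was closed.

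Genes that act upstream and downstream of these cytokines stood differently. All 12 signal transducers (STATs, JAKs and NFATs) and 11 of 13 lineage factors, Gata3 and Runx3 among them, were open at the start site in all 4 libraries. Tbx21 was open in 3 libraries and Eomes in 2, and WT replicate 1 lacked both. Of 17 receptor genes 11 were open in all 4, and Il13ra1, Il5ra, Il17rc and Il23r in none. Of 22 other cytokine genes 7 were open in all 4 (Tnf, Lta, Ltb, Tgfb1, Areg, Il15 and Il18) and 11 in none.

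Of the 23 regions in the windows, start-site regions included, 13 were called in all 4 libraries (56.5%), against 14.1% of all regions and 19.1% of the regions within 20 kb of any protein-coding gene. Of these 13, 10 had their summit more than 10 kb from the start site of the gene they are named for. Windows that reach 20 kb past each gene allow such distances, and the share over all genes was not counted. Among the 10, Il5 −13.5 kb is the promoter of Rad50 and Il4 +28.1 kb lies in an exon of Kif3a. A region called in all 4 libraries lay in the windows of 7 of the 8 genes, all but Il17f, against 71.8% of protein-coding genes. The number of regions follows the window, with 10 regions in windows of 10 kb and 60 in windows of 50 kb, of which 4 and 30 were called in all 4 libraries. Of the 23, 5 were called in a single library, against 61.3% of all regions.

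**Figure D1:**
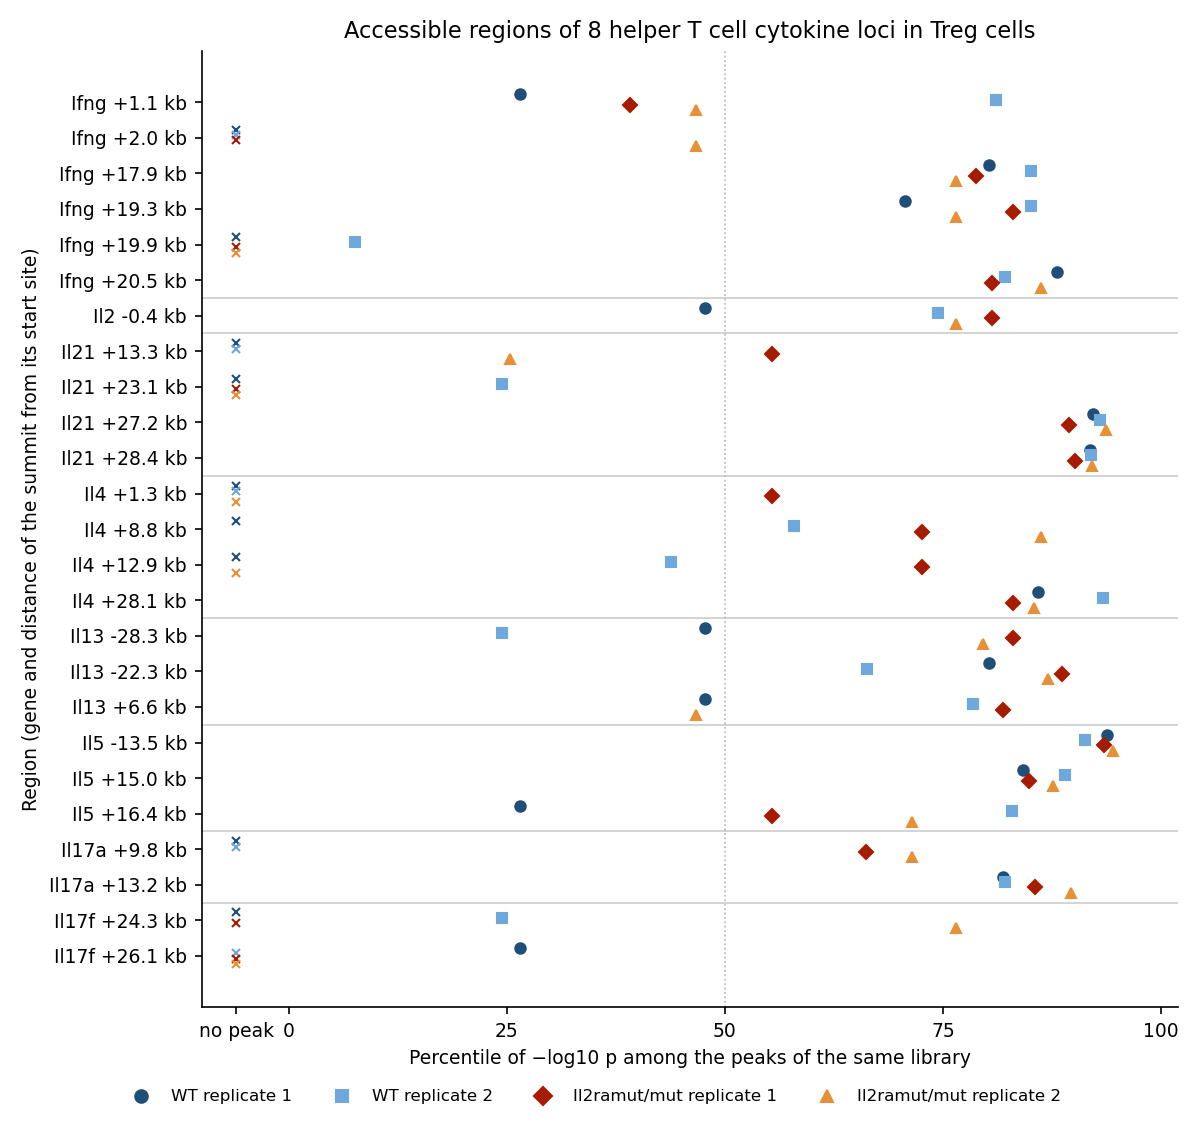
Percentile of each peak's −log10 p among all peaks of its library (x axis, 0 to 100) for the 25 regions (y axis, ordered by gene and distance in kb), with circles and squares for the WT libraries, diamonds and triangles for the Il2ramut/mut libraries, and crosses at the left where no peak was called. Both regions at +27.2 and +28.4 kb of Il21 sit near the 90th percentile in every library, while both Rad50 intron regions of Il13 sit higher in the diamonds and triangles than in the circles and squares.

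Values are given for WT replicates 1 and 2 and then Il2ramut/mut replicates 1 and 2. The fold enrichment is the authors' ratio of reads at the summit to the background of the library. A percentile is the rank of a peak by −log10 p among the peaks of its library, in percent. Peaks of equal −log10 p, which are many among weak peaks, share their mean rank. The median percentile of the 13 regions called in all 4 libraries was 83.8, and that of all such regions was 83.7. Reads at the summit ranged from 6 to 47 over the 83 peaks of the 25 regions. A peak of 8 reads has a 95% exact Poisson interval of 3.45 to 15.8 reads and one of 47 reads an interval of 34.5 to 62.5, which cover counting error only.

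Il2 (ENSMUSG00000027720.7, chromosome 3, 37120523 to 37125959, minus strand) had 1 region in its window, from 37125636 to 37126575, over exon 1 and the promoter. The fold enrichment of its strongest peak was 4.56 and 6.57 in WT and 7.18 and 5.83 in Il2ramut/mut. The −log10 p was 6.04, 10.3, 12.4 and 8.81. The percentiles were 47.8 and 74.5 in WT against 80.6 and 76.5 in Il2ramut/mut, so both Il2ramut/mut libraries stood above both WT libraries. The reads, 8 and 12 against 15 and 11, overlapped between genotypes. In the WT libraries the region was made of a pair of peaks, one with its summit 111 and 178 bp inside the gene and one 351 and 327 bp upstream of it. Il2ramut/mut replicate 1 had 1 peak with its summit 396 bp upstream, and Il2ramut/mut replicate 2 had 1 peak with its summit 139 bp inside the gene, so that the strongest summits compared are not the same spot. The log2 difference of Il2ramut/mut minus WT was 0.30 (SE 0.25, limma adjusted p = 0.737).

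Il21 (ENSMUSG00000027718.8, chromosome 3, 37222759 to 37232636, minus strand), which lies on the same chromosome as Il2, had the strongest intergenic regions inside the 20 kb windows. The region at +27.2 kb, from 37205088 to 37205919, held 31 and 45 reads in WT and 28 and 37 in Il2ramut/mut. The fold enrichment there was 16.2, 23.2, 13 and 18.5, its −log10 p 36.2, 58.6, 28.9 and 44.2, and its percentile 92.2, 93.0, 89.4 and 93.7. Values of the genotypes overlapped. The region at +28.4 kb, from 37203955 to 37204958, held 30 and 40 reads in WT and 30 in each Il2ramut/mut library. Here the fold enrichment was 15.7, 20.7, 13.9 and 15.1, its −log10 p 34.7, 50.3, 31.6 and 33.6, and its percentile 91.9, 92.0, 90.1 and 92.1. Both regions lie beyond the 3′ end of Il21 in intergenic DNA, and stood higher in each library than the other regions of these windows that do not touch a gene.

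The region at Il21 +13.3 kb, from 37219113 to 37219391, was called in both Il2ramut/mut libraries and in neither WT library. Its fold enrichment was 4.93 and 3.89, its −log10 p 7.10 and 4.82, and its percentile 55.5 and 25.4, on 10 and 7 reads. With only peaks of a −log10 q of at least 3 it was no longer called in both. A further region at +23.1 kb was called in WT replicate 2 only, on 7 reads.

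Ifng (ENSMUSG00000055170.4, chromosome 10, 118441046 to 118445892, plus strand) had 6 regions, 4 of them called in all 4 libraries. The nearest to the start site lay at +1.1 kb in intron 1 (118441888 to 118442382) and in exon 1 of Gm49751, a transcript annotated over the gene. The authors' fold enrichment was 4.05 and 8.59 in WT and 4.49 and 4.37 in Il2ramut/mut, its −log10 p 5.07, 15.1, 6.15 and 5.75, and its percentile 26.6, 81.0, 39.1 and 46.7. WT replicate 2 stood apart from the other 3 libraries, which held 7, 9 and 8 reads against its 16.

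The other regions of Ifng lay downstream in a group between +17.9 and +20.5 kb. At +17.9 kb (118458686 to 118459300) the fold enrichment was 7.09 and 11.1 in WT and 6.73 and 5.83 in Il2ramut/mut, with a −log10 p of 11.5, 21.7, 11.3 and 8.81. Its percentiles, 80.3 and 85.2 against 78.8 and 76.5, were lower in both Il2ramut/mut libraries, while its reads, 13 and 21 against 14 and 11, overlapped. At +19.3 kb (118460084 to 118460861) the fold enrichment was 5.57, 11.1, 8.07 and 5.83, the −log10 p 8.11, 21.7, 14.7 and 8.81, and the percentile 70.7, 85.2, 83.0 and 76.5, with the genotypes overlapping. At +20.5 kb (118461287 to 118461991) the fold enrichment was 11.1, 9.09, 7.18 and 8.75, the −log10 p 21.7, 16.4, 12.4 and 15.8, and the percentile 88.0, 82.1, 80.6 and 86.3, and the genotypes again overlapped. Single-library peaks at +2.0 kb (Il2ramut/mut replicate 2, 8 reads) and +19.9 kb (WT replicate 2, 6 reads) completed the window.

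**Figure D2:**
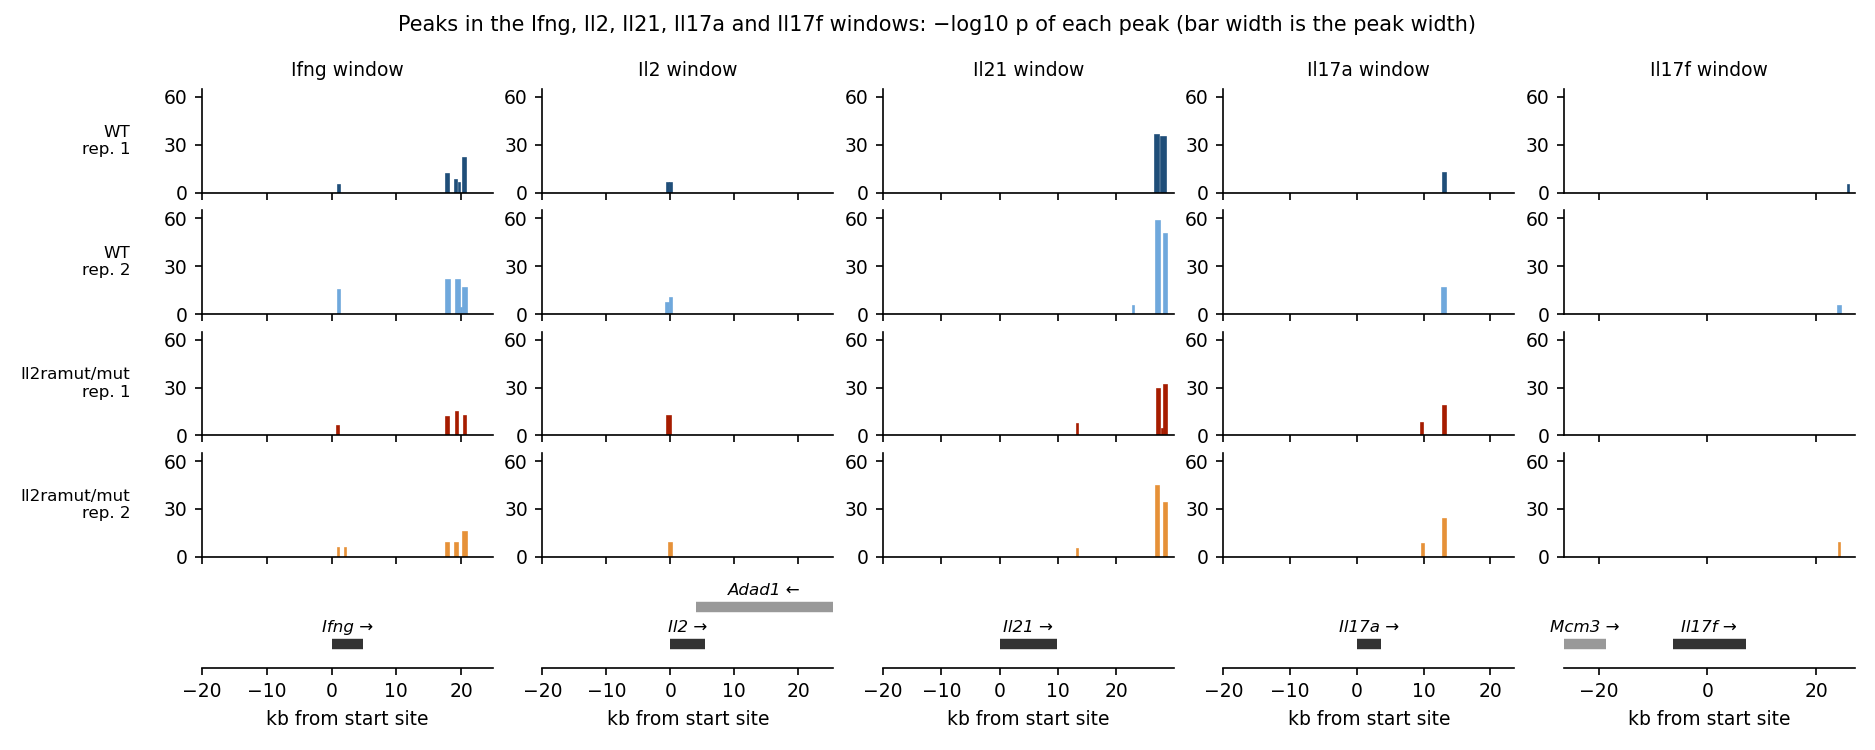
Peaks around Ifng, Il2, Il21, Il17a and Il17f, with the distance from the start site in kb on the x axis (the direction of transcription to the right) and the −log10 p of each peak on the y axis, one row per library and gene models below, where the Il17f model extends past its basic transcripts. The pair of bars right of Il21 is the tallest in each of the 4 libraries, and the Il17f window is almost empty.

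Il17a (ENSMUSG00000025929.4, chromosome 1, 20730905 to 20734496, plus strand) had 2 regions, both downstream. At +13.2 kb (20743711 to 20744315) all 4 libraries had a peak, with a fold enrichment of 7.6 and 9.09 in WT and 9.42 and 11.7 in Il2ramut/mut. The −log10 p was 12.7, 16.4, 18.3 and 23.6 and the percentile 81.9, 82.1, 85.6 and 89.7, on 14, 17, 20 and 23 reads. Both Il2ramut/mut libraries lay above both WT libraries in every measure. The log2 difference was 0.43 (SE 0.25, limma adjusted p = 0.649) and did not pass the test. This region is the tandem repeat printed above, and the part of the repeat in the values was not tested.

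At Il17a +9.8 kb (20740573 to 20740948) both Il2ramut/mut libraries and neither WT library had a peak. The fold enrichment of these peaks was 5.38 and 5.35, their −log10 p 8.10 and 7.75 and their percentile 66.2 and 71.4, on 11 and 10 reads. This and Il21 +13.3 kb were the 2 regions called in both Il2ramut/mut libraries and in neither WT library, 2 of 23, against 3.56% of all regions. No region was called in both WT libraries and in neither Il2ramut/mut library, against 2.7% of all regions. With 1 library of either genotype left out, 1 or 2 regions fell in that class. Without a WT library, the class rests on the WT library left. Without an Il2ramut/mut library, a peak that joined neighbouring WT peaks was missing. This was at Il2 for Il2ramut/mut replicate 1 and at Il5 +16.4 kb for Il2ramut/mut replicate 2. WT peaks there then stood apart as a region of their own.

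Il17f (ENSMUSG00000041872.9, chromosome 1, 20777146 to 20790617, minus strand) was the gene with least open chromatin. Its nearest region lay at +24.3 kb (20759706 to 20760170) and was called in WT replicate 2 and Il2ramut/mut replicate 2 only. There the fold enrichment was 4.04 and 5.83, the −log10 p 5.05 and 8.81 and the percentile 24.5 and 76.5. The other region, at +26.1 kb, was called in WT replicate 1 only on 7 reads, and Il2ramut/mut replicate 1 had no peak in the window.

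The cluster of Il4, Il13 and Il5 held 10 regions, 7 of them called in all 4 libraries. Il4 (ENSMUSG00000000869.12, chromosome 11, 53602982 to 53618669, minus strand), Il13 (ENSMUSG00000020383.1, 53631324 to 53634702, minus strand) and Il5 (ENSMUSG00000036117.2, 53720794 to 53725106, plus strand) form this cluster, with Rad50, which codes for a DNA repair protein, between Il13 and Il5. The windows of Il4 and Il13 overlap and share 2 regions.

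In Il4, the region nearest to the start site lay at +1.3 kb in intron 2 (53617247 to 53617450) and was called in Il2ramut/mut replicate 1 only, with a fold enrichment of 4.93, a −log10 p of 7.10 and a percentile of 55.5. Il4 +8.8 kb was called in 3 libraries, all but WT replicate 1, on 9 reads in WT replicate 2 and 12 and 17 in Il2ramut/mut. Il4 +12.9 kb was called in WT replicate 2 and Il2ramut/mut replicate 1 on 8 and 12 reads. Both lie within the gene model but beyond the basic transcripts of Il4.

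The region at Il4 +28.1 kb (53590309 to 53591056) lies in exon 10 of a Kif3a transcript. It held 18 and 47 reads in WT and 17 and 16 in Il2ramut/mut. The fold enrichment was 9.62 and 24.2 against 8.07 and 8.26, the −log10 p 17.7 and 62.0 against 14.7 and 14.6, and the percentile 86.0 and 93.4 against 83.0 and 85.5. Both Il2ramut/mut libraries were lower than both WT libraries, but WT replicate 2 stood far above the other 3. The log2 difference was −0.81 (SE 0.31, limma adjusted p = 0.582), and −0.38 without WT replicate 2.

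Between Il4 and Il13, the region at Il13 +6.6 kb (53627856 to 53628261) was called in all 4 libraries. Its fold enrichment was 4.56 and 7.58 in WT and 7.62 and 4.37 in Il2ramut/mut, its −log10 p 6.04, 12.7, 13.5 and 5.75, and its percentile 47.8, 78.5, 81.9 and 46.7. Each genotype had a high and a low library, and the log2 difference was 0.07 (SE 0.34). Il13 had no other region in its window called in all 4 libraries.

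The 2 regions that only the cluster reading takes in both lie in intron 21 of Rad50, upstream of Il13. The region at −22.3 kb (53656698 to 53657284) held 13 and 10 reads in WT and 26 and 18 in Il2ramut/mut. Its fold enrichment was 7.09 and 5.56 against 12.1 and 9.23, its −log10 p 11.5 and 8.09 against 26.1 and 17.1, and its percentile 80.3 and 66.3 against 88.7 and 87.0. The region at −28.3 kb (53662810 to 53663309) held 8 and 7 reads in WT and 17 and 12 in Il2ramut/mut. Its fold enrichment was 4.56 and 4.04 against 8.07 and 6.32, its −log10 p 6.04 and 5.05 against 14.7 and 9.90, and its percentile 47.8 and 24.5 against 83.0 and 79.7. At both, each Il2ramut/mut library exceeded each WT library in every measure. In percentile, this order was found at 26.2% of all regions called in all 4 libraries.

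The log2 difference was 0.73 (SE 0.31, limma adjusted p = 0.584) at −22.3 kb and 0.76 (SE 0.25, limma adjusted p = 0.582) at −28.3 kb. Neither passed the test over all regions. Leaving out any 1 library moved the difference between 0.43 and 1.07 at −22.3 kb and between 0.56 and 0.95 at −28.3 kb.

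Il5, the eosinophil growth factor, had 3 regions in its window and a peak at none of its own start sites. The strongest, at −13.5 kb (53706675 to 53707633), is the promoter and exon 1 of Rad50, with 37 reads in each WT library and 44 and 42 in Il2ramut/mut. Its fold enrichment was 19.2, 19.2, 20.2 and 20.9, its −log10 p 45.6, 45.5, 52.6 and 52.2 and its percentile 93.8, 91.3, 93.5 and 94.5. Both Il2ramut/mut libraries stood above both WT libraries in reads, fold enrichment and −log10 p, while the percentiles overlapped. The log2 difference was small, at 0.14 (SE 0.22, limma adjusted p = 0.868).

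Downstream of Il5, at +15.0 kb (53735541 to 53736025), the fold enrichment was 8.61, 15.2, 8.97 and 9.72, the −log10 p 15.1, 33.1, 17.1 and 18.3 and the percentile 84.2, 89.0, 84.8 and 87.7. At +16.4 kb (53736920 to 53737957) the fold enrichment was 4.05, 9.60, 4.93 and 5.35, the −log10 p 5.07, 17.7, 7.10 and 7.75 and the percentile 26.6, 83.0, 55.5 and 71.4. WT replicate 2 was the highest of the 4 libraries at both, and the genotypes overlapped. The nearest annotated start site to both is that of the non-coding Gm12213. At +16.4 kb each WT library had a pair of peaks. The strongest summit lay at 16391 and 16394 bp in WT and at 16390 bp in Il2ramut/mut replicate 1. Il2ramut/mut replicate 2 had 1 peak of 1032 bp with its summit at 16590 bp, so the summits compared are not all the same spot.

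**Figure D3:**
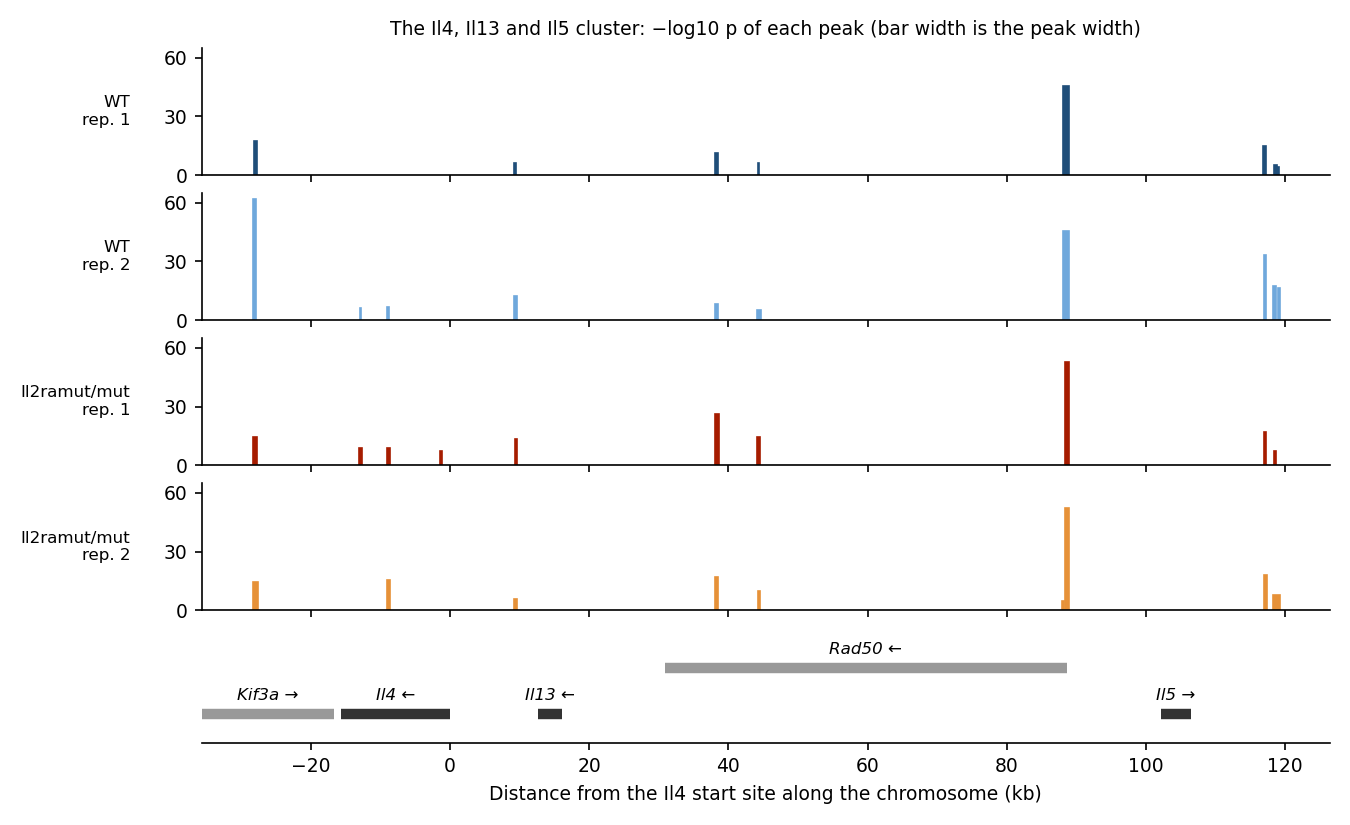
The Il4, Il13 and Il5 cluster, with the distance from the Il4 start site along the chromosome in kb on the x axis and the −log10 p of each peak on the y axis, one row per library and gene models with their direction below. The tallest bar in 3 of the libraries is the Rad50 promoter at the right end of the gene, and the pair of bars near 40 kb, in Rad50, is taller in the Il2ramut/mut rows.

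How much of each window was covered by peaks ordered the genes differently from the start sites. The covered share, as the mean of 4 libraries, was 4.16% at Ifng, 4.07% at Il5, 2.82% at Il21, 2.44% at Il4, 1.46% at Il17a, 1.33% at Il2, 0.892% at Il13 and 0.435% at Il17f. Ifng and Il5 thus stood at the percentiles 75.5 and 74.8 of protein-coding genes, and Il17f at 21.8. Much of the Il5 share was the peak at the promoter and exon 1 of Rad50. It took 819 of 1897 covered bp in WT replicate 1 and 890 of 1980 in WT replicate 2. In Il2ramut/mut replicate 1 it took 516 of 1115 bp. In Il2ramut/mut replicate 2 peaks of 514 and 243 bp lay there, of 2216 bp. The Il5 share without them was not computed. By library the share ran from 3.0 to 5.4% at Ifng, from 2.52 to 5.0% at Il5 and from 1.36 to 3.52% at Il4, so neighbours in this order overlapped. At Il17f it was between 0 and 0.870%. Both Il2ramut/mut libraries lay above both WT libraries at Il17a (1.73 and 1.71% against 1.02 and 1.37%) and at Il4 (3.52 and 2.46% against 1.36 and 2.40%), and below them at Il17f (0 and 0.406% against 0.464 and 0.870%). These differences were not tested, and the genotypes overlapped at the other 5 genes. How many of all protein-coding genes show such an order was not counted. With 2 libraries per genotype, an exact permutation test over libraries could not give a two-sided p below 0.33.

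**Figure D4:**
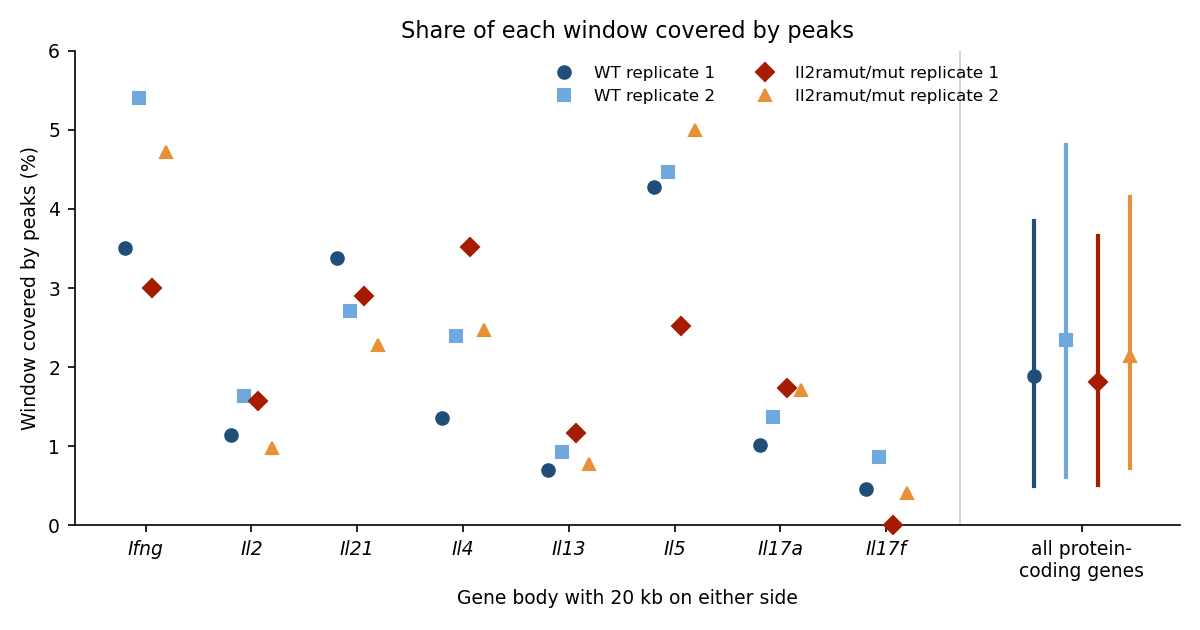
Share of each window (gene body and 20 kb on either side) covered by peaks in percent, 1 symbol per library, with the median and quartiles of all protein-coding genes at the right. Ifng and Il5 lie above the median of all genes in every library, and Il13 and Il17f below it. The Il5 window includes the promoter of Rad50.

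Among 22 other cytokine genes, those whose covered share was most like that of a helper T cell cytokine over the 4 libraries, by Euclidean distance in percentage points, were Il12a (0.715) and Areg (2.61) for Ifng and Il1b (0.819) and Il15 (1.08) for Il2. For Il21 they were Il1a (0.864) and Il27 (1.33), for Il4 Il27 (1.17) and Il9 (1.33) and for Il13 Ccl5 (0.818) and Xcl1 (0.890). For Il5 they were Il12a (1.33) and Areg (2.05), for Il17a Il18 (0.616) and Il1b (0.627) and for Il17f Il22 (0.419) and Xcl1 (1.04).

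The genotypes were then compared over all 38426 regions called in all 4 libraries, with the log2 fold enrichment of the strongest peak in limma. No region of the genome passed an adjusted p of 0.05 in either direction (0% higher and 0% lower in Il2ramut/mut), and 8.55% had an unadjusted p under 0.05. Of the 13 regions at the helper T cell cytokines, 0 passed by limma, and Il4 +28.1 kb alone had an unadjusted p under 0.05. Of the Rad50 intron regions 0 of 2 passed, and the one at −28.3 kb had such a p. With 2 libraries per genotype an exact permutation test over libraries could not give a two-sided p below 0.33. The differences of the 13 regions ran from −0.81 to 0.43, 4 above 0 and 9 below, with a median of −0.20, against a median of 0.00 and 50.6% above 0 over all regions. The median ran from −0.26 to −0.04 with 1 library left out, and it was −0.04 without WT replicate 2.

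**Figure D5:**
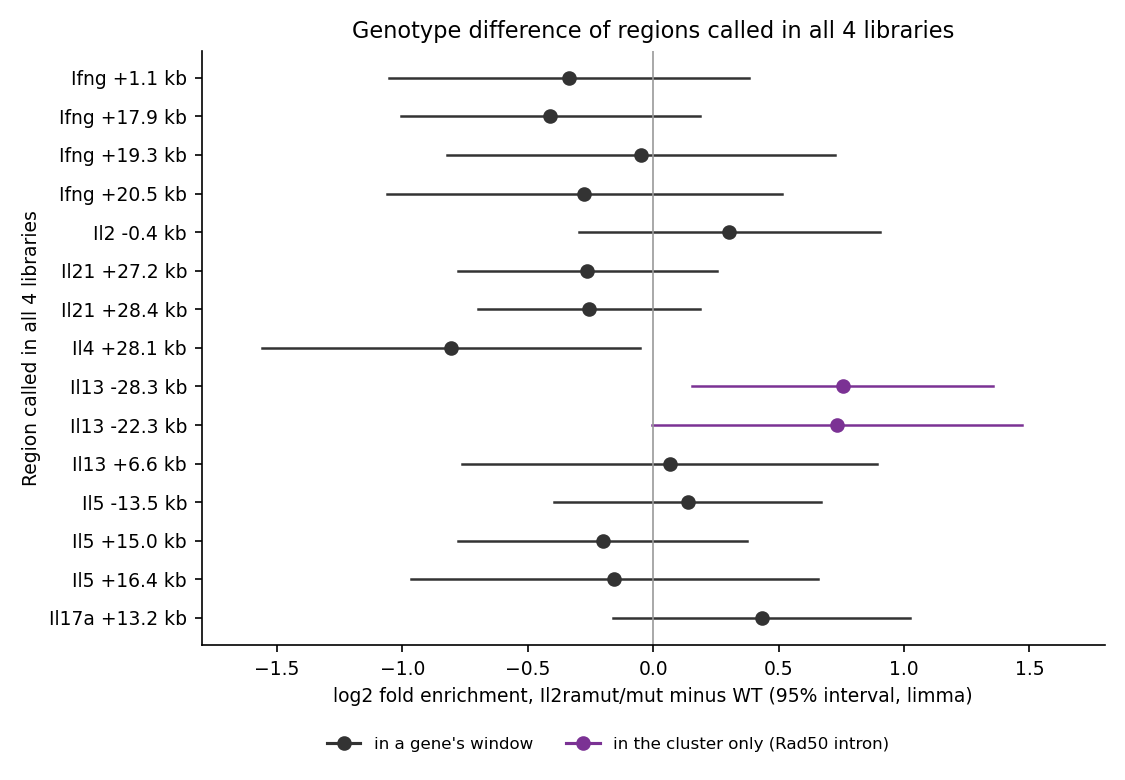
Log2 difference in fold enrichment, Il2ramut/mut minus WT (x axis), with its 95% interval from limma, for the 15 regions called in all 4 libraries (y axis). Only the intervals of Il4 +28.1 kb (left of 0) and Il13 −28.3 kb (right of 0) leave out 0, that of Il13 −22.3 kb reaches just past it, and none of these regions passed the test over all regions.

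By rank alone, both Il2ramut/mut percentiles lay above both WT percentiles at 2 of the 13 regions, Il17a +13.2 kb and Il2 −0.4 kb, against 26.2% of all regions called in all 4 libraries. They lay below at 2, Ifng +17.9 kb and Il4 +28.1 kb, against 12.6%. Outside the 13, they lay above at both Rad50 intron regions.

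The irreproducible discovery rate (IDR), which compares the rank of a region in both libraries of a genotype, called 8 of the 23 regions reproducible in both genotypes at 0.05, against 7.71% of all regions. They were Il21 +27.2 and +28.4 kb, Ifng +17.9 and +20.5 kb, Il4 +28.1 kb, Il5 −13.5 and +15.0 kb and Il17a +13.2 kb. The Il2 promoter was the 1 region reproducible in Il2ramut/mut only (IDR 0.0379, against 0.138 in WT), a class that held 1.46% of all regions. Its Il2ramut/mut value joins peaks with summits 396 bp upstream of the start site and 139 bp inside the gene. In WT the pair of peaks formed separate regions and the lower IDR was taken, so the values do not describe the same spot. No region at these genes was reproducible in WT only, a class that held 1.56% of all regions. Both Rad50 intron regions were reproducible in Il2ramut/mut only, with an IDR of 0.0003 against 0.355 at −22.3 kb and 0.0151 against 0.409 at −28.3 kb. All of these had peaks in all 4 libraries, so the class marks ranks that differ between libraries and not the presence of a peak.

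At the start sites of the pathway genes limma called 0 of 12 signal transducers, 0 of 11 lineage factors, 0 of 11 receptors and 0 of 7 other cytokines, in either direction, with 2, 1, 3 and 1 at an unadjusted p under 0.05. The median log2 difference of these lists lay between −0.13 for the receptors and 0.09 for the signal transducers.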

How the data were processed

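The libraries were made from flow-sorted Treg cells with the Tn5 transposase. According to the authors' methods and processing notes, reads were trimmed (Trim Galore 0.3.7), mapped to mm10 (BWA 0.7.13, SAMtools 0.1.19), freed of duplicates (Picard 1.92) and mitochondrial reads and shifted, and narrow peaks were called in each library on its own (MACS2 2.1.0). The deposited lists give for each peak the authors' fold enrichment at the summit (a ratio), −log10 p-value, −log10 q-value and score. They hold no read totals, so the depth is unknown. Each fold enrichment was checked to be that of a whole number of reads over 1 background level per library (0.974, 0.979, 1.23 and 1.06 reads), with 1 read added to both, which gives the reads at the summit.

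Gene positions came from GENCODE M21 (basic set), whose GRCm38 coordinates are those of mm10. Peaks overlapping by at least 1 bp were joined over the 4 libraries. A gene counted as open at its start site with a peak within 1 kb of the start of any of its transcripts. The log2 fold enrichment of regions called in all 4 libraries was compared in limma (3.58.1, R 4.3.3) with an empirical Bayes trend and Benjamini-Hochberg adjustment over all regions, without a block, after tests on simulated data. IDR was fitted in Python (3.11.15) on ranks of −log10 p with ties broken from a fixed seed, with the authors' cutoff of 0.05.

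The genes, lists and tests were chosen with earlier results of these data known. The motif letters and the width of the window searched were chosen after the peaks had been seen. Some listed genes and a motif are not reported here. Named were all 8 genes, each region called in all 4 libraries (at most 5 per window), each region called in both libraries of only 1 genotype, the region nearest to each start site, and the 2 other cytokine genes nearest in covered share. Alternatives were windows of 10 and 50 kb, equally long peak lists, a −log10 q cutoff of 3, joining at 50% overlap, other start-site definitions, other limma and IDR settings and leaving out each library.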

Additional observations from a re-analysis of the deposited data

How the results depend on the processing

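Depth is unknown, and regions at the cytokine loci rest on 6 to 47 reads at the summit, so weak regions come and go with the threshold. Windows of 10 kb held 10 regions, 4 of them in all 4 libraries, with a median covered share of 1.43% against 1.95%, and windows of 50 kb held 60 and 30. With a −log10 q of at least 3, 1 region was called in both Il2ramut/mut libraries only. With 1 library left out, 1 to 2 regions fell in the class called in WT libraries only (0 with all), 2 to 3 in that of Il2ramut/mut, and 1 to 2 start sites were open in every remaining library, the covered share running from 1.72 to 2.12%.

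No region at the cytokine loci passed limma's adjusted p of 0.05 in any setting. Over the genome, 318 regions passed with each library centred on its median (142 higher and 176 lower in Il2ramut/mut) and 4 with the stricter q (2 and 2), against 0 otherwise. The replicate block gave 0 regions called at these loci and 0 over the genome, with 2865 at an unadjusted p under 0.05 against 3285 without it. Same-numbered libraries deviated together with r = 0.0109 over regions. This value compares only the difference between the libraries of each genotype, after normalization, and cannot tell whether the numbers pair them. The labels do not say.

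With 1 library left out, the log2 difference turned at Ifng +1.1 kb (range −0.78 to 0.085, above 0 without WT replicate 2), Ifng +19.3 kb (−0.39 to 0.24, above 0 without WT replicate 2 and, at 0.20, without Il2ramut/mut replicate 2), Ifng +20.5 kb (−0.67 to 0.079, above 0 without WT replicate 1), Il13 +6.6 kb (−0.33 to 0.51, below 0 without Il2ramut/mut replicate 1 and, at −0.14, without WT replicate 1), Il5 −13.5 kb (−0.14 to 0.41, below 0 without WT replicate 2) and Il5 +16.4 kb (−0.68 to 0.28, above 0 without WT replicate 2). The cause was not tested. The adjusted p over the alternatives ran from 0.13 to 0.691 at Il4 +28.1 kb, from 0.266 to 0.712 at Il13 −22.3 kb and from 0.359 to 0.656 at Il13 −28.3 kb. The interval of Il13 −22.3 kb held 0 in the main fit and with −log10 p in place of the fold enrichment. It left out 0 with the replicate block (0.10 to 1.37), centring (0.20 to 1.42), the stricter q (0.095 to 1.44) and no trend (0.046 to 1.42). Il13 −28.3 kb was not in the stricter fit, as its −log10 q in WT replicate 2 was 2.97. Fits without 1 library leave 1 library in a genotype. The differences there ran from 0.43 to 1.07 at −22.3 kb and from 0.56 to 0.95 at −28.3 kb. At an IDR of 0.01, 7 regions were reproducible in both genotypes, Ifng +17.9 kb in WT only, and the Il2 promoter and Il13 −28.3 kb in neither.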

Other observations

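Between 20 and 50 kb from the genes lay 37 further regions, of which 17, with the Rad50 intron regions among them, were called in all 4 libraries. The strongest intergenic one near Ifng stood 22.0 kb upstream of its start site (chromosome 10, 118418706 to 118419660), with 54 and 77 reads at the summit in WT and 70 and 63 in Il2ramut/mut, and percentiles of 96.5, 96.9, 96.7 and 96.9. It held more reads than any region inside the Ifng window, and its genotypes overlapped. A conserved enhancer of Ifng is known upstream of the gene in this neighbourhood, and whether it is this region was not tested. Further regions of Ifng called in all 4 libraries lay 28.1 and 34.1 kb upstream and 28.2, 29.8, 36.4 and 45.9 kb downstream, with between 12 and 35 reads. Upstream of Il2, a region at 26.5 kb (chromosome 3, 37152236 to 37152969) held 19 and 29 reads in WT and 16 in each Il2ramut/mut library. Another at 47.5 kb held 10 and 17 reads in WT and 15 and 9 in Il2ramut/mut, so the genotypes overlapped. Upstream of Il21, a region at 27.1 kb (chromosome 3, 37259443 to 37260098) held 11 and 14 reads in WT and 10 and 9 in Il2ramut/mut. Another at 38.9 kb held 9 and 13 reads in WT and 11 in each Il2ramut/mut library, again overlapping. How often such orders occur over all regions was not counted. Regions at the promoters of Irf1, Mcm3 and Kif3a were also taken in by the wider window.

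Among the pathway start sites compared in limma, Il2ra itself, the mutated gene, had percentiles of 94.6 and 95.1 in WT and 89.8 and 91.2 in Il2ramut/mut, with a log2 difference of −0.83 (SE 0.17, limma adjusted p = 0.582). Areg, which codes for a tissue repair factor made by Treg cells, had percentiles of 78.2 and 83.0 in WT and 88.7 and 90.5 in Il2ramut/mut, with a log2 difference of 0.73 (SE 0.23, limma adjusted p = 0.582). Both were named after their values were seen, and neither passed the test over all regions.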
